A study of Mus musculus with 24 samples.

Results

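TRBV13-1, the mouse Vβ segment also known as Tcrb-V8.3, was followed through the TCRβ repertoires of 24 tumors from 12 mice. Its members were all deposited TCRβ sequences with that V segment, no stop mark and a count of at least 2. The members numbered 14226 of 75357 retained sequences and formed 11020 of 61362 clonotypes when each tumor was counted separately, and 8073 different clonotypes over the series. Sequences with equal V and J segments and an equal CDR3 in amino acids were counted as 1 clonotype. TRBV13-1 was chosen by its high share of counts and clonotypes in these same tumors, so those levels are a description of the series and not a finding. At the limit of the rule, 46761 TRBV13-1 sequences without a stop mark had a single count and were left out, whereas 4657 had exactly 2 counts and were kept.

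Female BALB/c mice, obtained at 7 to 9 weeks of age, carried a subcutaneous CT26.CL25 tumor in each flank, and TCRβ libraries were made from total RNA of whole tumors. CT26 is a mouse colon carcinoma line, and its CL25 derivative carries the bacterial β-galactosidase gene as a model antigen. In the time-matched group (mice 6, 12 and 14, untreated) both tumors were harvested on day 13. In the time-separated group (mice 4, 17 and 19, untreated) 1 tumor was removed by surgery on day 9 and the other was harvested 11 days later, on day 20. The decitabine groups followed the same schedule and received 0.5 mg/kg (mice 3, 11 and 20) or 2 mg/kg decitabine (mice 7, 10 and 16), an inhibitor of DNA methylation, intraperitoneally on 5 consecutive days after surgery. The early tumor of a treated mouse was thus removed before treatment. Which tumor was early is not in the labels, so the tumor numbers 1 and 2 are used as names and give no direction in time.

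The β chain of a T cell receptor is assembled by joining a V, a D and a J segment. The joint, with bases trimmed and added at random, encodes CDR3, the loop that mainly contacts the peptide presented by an MHC molecule. Sequences that differ in bases can therefore encode the same CDR3 when T cells that arose independently carry the same receptor chain. TRBV13-1 lies between Trbv12-1 and Trbv12-2 in the RefSeq annotation of mouse assembly GRCm38.p6. Its family members TRBV13-2 (Tcrb-V8.2) and TRBV13-3 (Tcrb-V8.1) lie beyond Trbv12-2. T cells with TRBV13-1 have been described among those that recognise AH1, a retroviral gp70 peptide of CT26 cells. Specificity was not measured here. The D segment TRBD2 encodes aspartate, tryptophan and glycines in one of its reading frames.

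The largest TRBV13-1 clonotype of each mouse, by its mean share over both tumors, is shown first, because most of them shared a feature of the CDR3. Clonotypes are named by their CDR3 residues from position 4, counted from the first cysteine, to the third-last residue. The deposited CDR3 sequences follow, 5′ to 3′, and capitals mark bases 16 to 18, the codon of position 6, where it encodes tryptophan.
Mouse 14, SDWGGGRQNTL, TRBJ2-4: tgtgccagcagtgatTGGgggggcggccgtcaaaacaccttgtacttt
Mouse 12, SDWAGGALDEQ, TRBJ2-7: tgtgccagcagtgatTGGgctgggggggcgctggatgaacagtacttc
Mouse 6, SETANTEV, TRBJ1-1: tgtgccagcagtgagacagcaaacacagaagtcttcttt
Mouse 17, SDWANSDY, TRBJ1-2: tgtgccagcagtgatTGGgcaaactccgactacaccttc
Mouse 4, RGSSYNSPL, TRBJ1-6: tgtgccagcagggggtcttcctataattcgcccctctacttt
Mouse 19, SEWGGDYAEQ, TRBJ2-1: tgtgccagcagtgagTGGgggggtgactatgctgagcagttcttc
Mouse 11, SDWGGGGQDTQ, TRBJ2-5: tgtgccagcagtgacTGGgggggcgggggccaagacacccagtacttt
Mouse 20, SDWGADYAEQ, TRBJ2-1: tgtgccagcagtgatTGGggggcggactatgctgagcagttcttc
Mouse 3, SDWGGGVQDTQ, TRBJ2-5: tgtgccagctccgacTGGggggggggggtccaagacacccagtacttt
Mouse 16, SDWGGGSQNTL, TRBJ2-4: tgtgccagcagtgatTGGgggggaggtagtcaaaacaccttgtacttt
Mouse 10, SEWGNERL, TRBJ1-4: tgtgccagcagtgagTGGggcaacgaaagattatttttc
Mouse 7, GHWGDVDTQ, TRBJ2-5: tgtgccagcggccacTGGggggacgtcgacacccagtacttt
In 10 of the 12 mice the largest TRBV13-1 clonotype had tryptophan at position 6, and the exceptions were mice 4 and 6. These clonotypes were also the largest of 19 of the 24 single tumors. Another clonotype was larger in tumor 2 of mice 3 and 4 and in tumor 1 of mice 7, 19 and 20, and 18 of the 24 largest clonotypes of a tumor had the tryptophan. Position 5 was aspartate or glutamate in 10 of 12, and 5 of 12 CDR3s were 16 residues long. The D segment was called TRBD2 in 8, TRBD1 in 3 and was not called in 1, and 8 of 12 used a TRBJ2 segment. This feature was noticed in the data and is given without a test.

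These libraries held between 63291 and 887567 retained counts. The time-matched libraries (375898 to 610800 counts) were all deeper than the untreated time-separated ones (97815 to 207072). Shares of counts used all retained counts, whereas shares of clonotypes per V segment were compared after thinning every library to 63291 counts. Sharing between mice, tracking of clonotypes between tumors and shares of CDR3s with tryptophan used all retained counts. How many counts a T cell or a molecule gave is unknown, and in bulk RNA fewer cells and less RNA per cell cannot be told apart.

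TRBV13-1 took 5.59% to 48.4% of the counts of a tumor (median 18.5%) and 10.1% to 27.4% of its clonotypes (median 15.9%). Over the 12 mice it held 20.5% ± 11.5 (SD) of counts, the second highest mean after TRBV17 at 27.8% ± 13.9, and 16.6% ± 4.46 of clonotypes, the highest mean of the 18 TRBV segments found in every tumor. TRBV13-2 held 14.8% ± 12.9 of counts and 13.3% ± 4.18 of clonotypes, and TRBV13-3 held 4.94% ± 3.35 and 7.13% ± 1.69. The order of mice by TRBV13-1 share of counts was 14, 17, 12, 7, 16, 4, 11, 20, 10, 19, 6 and 3, from 46.4% down to 6.67%. Neighbours in this order between mice 12 and 4 lay within 2.80 percentage points of each other, less than the gap of 14.1 points between the tumors of mouse 4. Counting error was small beside these gaps, since the widest exact 95% Clopper-Pearson interval, that of tumor 2 of mouse 7, ran from 25.3% to 26.0%. Such intervals cover counting error only.

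In the time-matched mice the shares of counts in tumors 1 and 2 were 44.4% and 48.4% (mouse 14), 27.8% and 24.6% (mouse 12), and 7.21% and 6.97% (mouse 6). The tumors of a mouse were close, and the 3 mice were far apart. In the untreated time-separated mice the shares were 31.0% and 32.7% (mouse 17), 30.4% and 16.3% (mouse 4), and 10.00% and 12.3% (mouse 19). With decitabine at 0.5 mg/kg they were 12.6% and 20.6% (mouse 11), 14.5% and 14.9% (mouse 20), and 5.59% and 7.74% (mouse 3). With 2 mg/kg they were 26.4% and 25.7% (mouse 7), 25.0% and 22.2% (mouse 16), and 10.4% and 14.7% (mouse 10). Every group overlapped with every other.

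**Figure D1:**
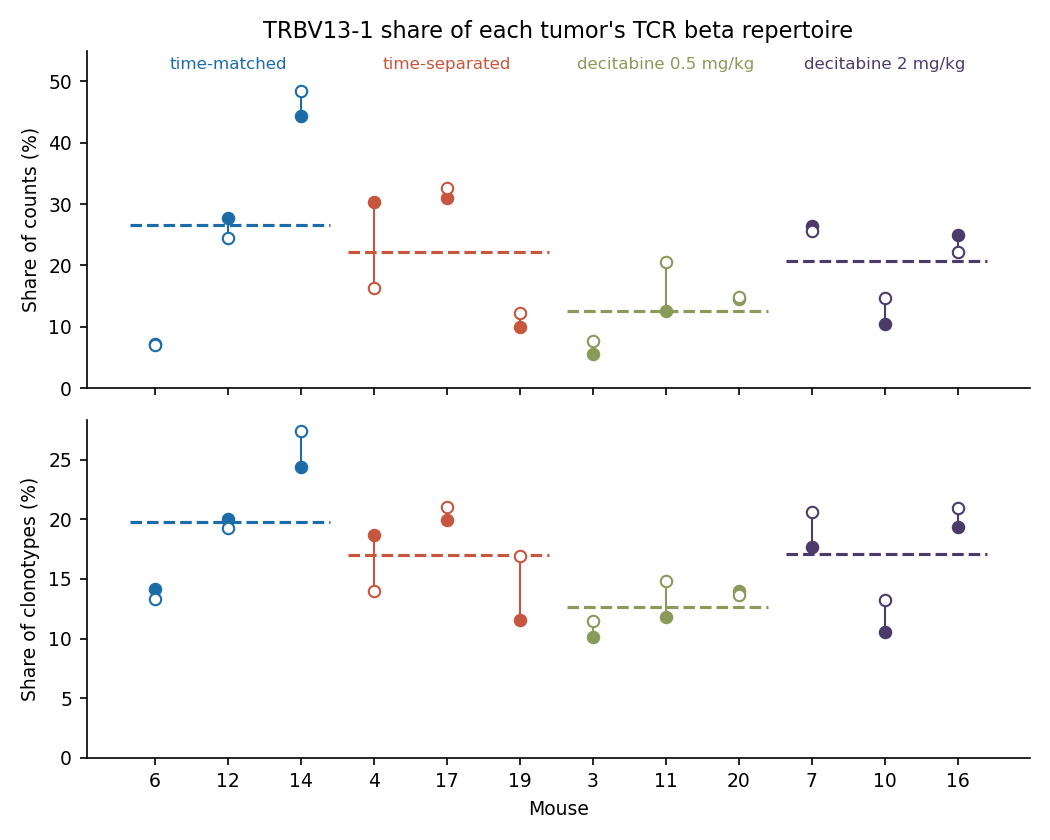
Share of counts (upper panel, %) and of clonotypes after thinning (lower panel, %) taken by TRBV13-1 in each tumor, by mouse. Filled points are tumor 1, open points tumor 2, and dashed lines are the means of the 3 mice of a group. Mouse 14 sits highest in both panels, and the groups overlap.

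Group means of the share of counts were 26.5% ± 19.7 (SD, n = 3 mice) for time-matched, 22.1% ± 10.4 for untreated time-separated, 12.7% ± 5.27 for 0.5 mg/kg and 20.7% ± 7.17 for 2 mg/kg decitabine. Time-matched mice were 4.43 percentage points above untreated time-separated mice (exact permutation test, two-sided p = 0.9, where 3 against 3 mice cannot go below 0.1). They were 8.05 points above all 9 time-separated mice (18.5% ± 8.16, exact permutation p = 0.314, adjusted over segments 0.503). Both differences depended on single mice. They were -5.49 and -1.87 points without mouse 14, and 14.2 and 17.8 points without mouse 6 (adjusted p at least 0.327, exact permutation test). Without mouse 19 the first was -1.06 points, and it was -0.269 points when the largest TRBV13-1 clonotype of each mouse was left out. The 3 time-separated groups differed by at most 9.47 points (exact permutation p = 0.329, adjusted 0.729), and by 15.0 points without mouse 19.

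Shares of clonotypes gave a narrower picture, with group means of 19.8% ± 6.09 (SD, n = 3 mice), 17.0% ± 3.16, 12.6% ± 1.61 and 17.1% ± 4.51 in the same order. Time-matched mice were 2.75 points above untreated time-separated mice (exact permutation p = 0.7, and -0.318 points without mouse 14) and 4.19 points above all 9 (exact permutation p = 0.182, adjusted 0.671, and 1.12 points without mouse 14 or 7.21 without mouse 6). With 1-base variants of large clones merged, as defined further on, the differences were 0.377 and 1.55 points. The time-separated groups differed by at most 4.42 points (exact permutation p = 0.246, adjusted 0.925, and 7.01 points without mouse 10). The same exact tests over all 18 segments called 0 of 18 (0.0%) in each of these comparisons with the 9 mice and among the 3 groups. At an unadjusted p below 0.05 there was 1 segment for counts (TRBV13-3) and 1 for clonotypes (TRBV12-1) in the comparison with the 9 mice, and none among the groups.

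The V segments whose share of counts had the highest rank correlation with that of TRBV13-1 over the 12 mice were TRBV3 (Spearman's rho 0.27), TRBV15 (0.15) and TRBV13-2 (0.13), all weak. Negative correlations were larger in size, and those of TRBV4 (-0.69), TRBV20 (-0.64) and TRBV1 (-0.58), named after their values were seen, were the lowest. The shares of a library sum to a fixed total, so these segments are not independent.

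Between the tumors of a mouse, the composition of the TRBV13-1 repertoire was compared by the Morisita-Horn index. The index is 0 when no clonotype is shared and 1 when every clonotype has the same share in both tumors. The time-matched mice had indices of 0.963 (mouse 14), 0.986 (mouse 12) and 0.985 (mouse 6). The untreated time-separated mice had 0.951 (mouse 17), 0.938 (mouse 4) and 0.358 (mouse 19). With decitabine the values were 0.944 (mouse 11), 0.720 (mouse 20) and 0.501 (mouse 3) at 0.5 mg/kg, and 0.909 (mouse 16), 0.844 (mouse 10) and 0.563 (mouse 7) at 2 mg/kg. All 3 time-matched values were above all 9 time-separated ones, but the difference in means did not pass the test. It was 0.231 (0.978 ± 0.0128 against 0.747 ± 0.224, SD, exact permutation p = 0.0864) against the 9 mice and 0.229 (exact permutation p = 0.1) against the 3 untreated ones. Without mouse 19 the second difference was 0.0333. When the largest TRBV13-1 clonotype of each mouse was left out, the first was 0.425 (exact permutation p = 0.0545).

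The summed share of counts of TRBV13-1 was compared in the same way. Its absolute log2 ratio between the tumors of a mouse was 0.05 to 0.18 in time-matched mice (mean 0.12 ± 0.06, SD, n = 3) and 0.04 to 0.90 in the 9 time-separated mice (mean 0.36 ± 0.31). The ratio was highest in mouse 4 (0.90), mouse 11 (0.71) and mouse 10 (0.49), and the groups overlapped. The difference was -0.24 against the 9 mice (exact permutation p = 0.25) and -0.31 against the 3 untreated ones (exact permutation p = 0.3). Without mouse 4 the latter was -0.07, and without mouse 17 it was -0.48.

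**Figure D2:**
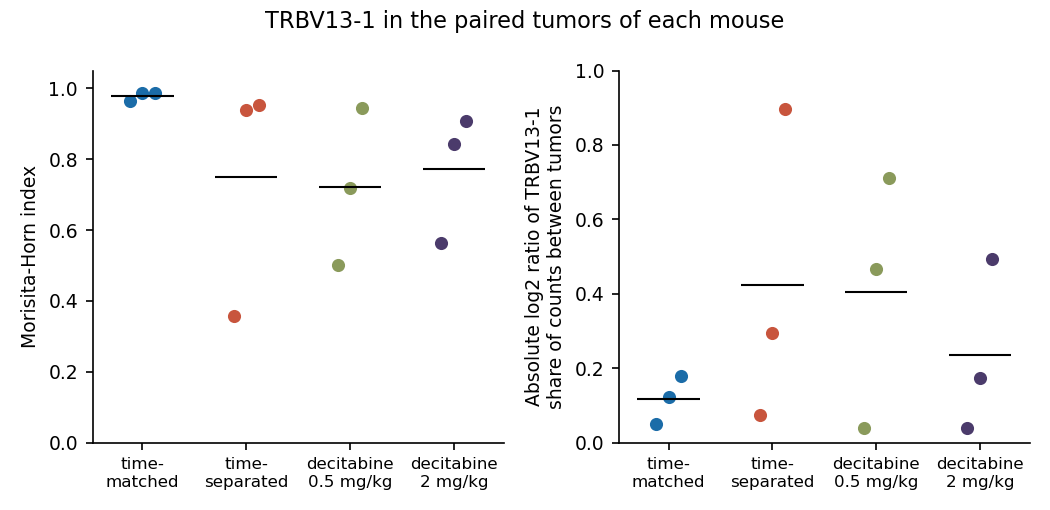
Morisita-Horn index of the TRBV13-1 repertoires (left) and absolute log2 ratio of the TRBV13-1 share of counts (right) between the tumors of each mouse. Each point is a mouse and the lines are group means. The time-matched mice sit at 0.963 to 0.986 in the left panel, above all time-separated mice.

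Single clonotypes carried much of each TRBV13-1 repertoire. The largest of a tumor took 16.8% to 81.6% of its TRBV13-1 counts (median 37.4%, and a mean of 40.3% ± 15.5 over the 12 mice, SD). The highest values were in tumor 1 of mouse 16 (81.6%) and tumor 2 of mouse 10 (69.0%), and the lowest in tumor 1 of mouse 3 (16.8%) and tumor 1 of mouse 19 (17.0%). TRBV13-1 filled 61 of the 240 places among the 10 largest clonotypes of each library (25.4%), with 20 in time-matched, 17 in untreated time-separated, 9 in 0.5 mg/kg and 15 in 2 mg/kg mice.

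The log2 ratio of a segment's share of counts to its share of clonotypes is built from the levels by which TRBV13-1 was chosen, so its value is given as a description. The mean for TRBV13-1 was 0.12 over the 12 mice, and 0.41 after merging 1-base variants. The mouse values ran from 0.84 in mouse 14 to -0.95 in mouse 6, and 9 of 12 were above 0. In exact sign-flip permutation tests over the 18 segments, 14 (77.8%) were below 0 past the threshold and 1 (5.56%), TRBV17, was above 0. TRBV13-2 (-0.30, adjusted p = 0.287 by the exact sign-flip permutation test) was not called, and TRBV13-3 was lower (-1.02, adjusted p = 0.00366 by the same exact test).

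In time-matched mice the largest clonotypes held similar shares of all counts in both tumors. SDWGGGRQNTL took 25.0% (95% CI 24.9% to 25.1%) and 21.2% (21.1% to 21.3%) of tumors 1 and 2 of mouse 14 and was the largest TCRβ clonotype of both. SDWAGGALDEQ took 15.7% and 11.9% in mouse 12, and SETANTEV took 2.33% and 2.04% in mouse 6, each the third largest of both libraries. The intervals of the tumors did not overlap in any of the 3 mice, although the ranks were equal.

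In untreated time-separated mice, SDWANSDY took 14.3% and 11.6% of the tumors of mouse 17, RGSSYNSPL took 6.39% and 2.92% in mouse 4, and SEWGGDYAEQ took 1.12% and 3.59% in mouse 19. In the 0.5 mg/kg group, SDWGGGGQDTQ took 6.26% and 12.2% in mouse 11, SDWGADYAEQ took 3.34% and 4.85% in mouse 20, and SDWGGGVQDTQ took 0.942% and 2.38% in mouse 3. In the 2 mg/kg group, SDWGGGSQNTL took 20.4% and 13.0% in mouse 16, SEWGNERL took 4.03% and 10.1% in mouse 10, and GHWGDVDTQ took 2.45% and 9.77% in mouse 7. Several of these clonotypes differed more than 2-fold between the tumors of a mouse, the widest being GHWGDVDTQ with ranks 12 and 2.

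**Figure D3:**
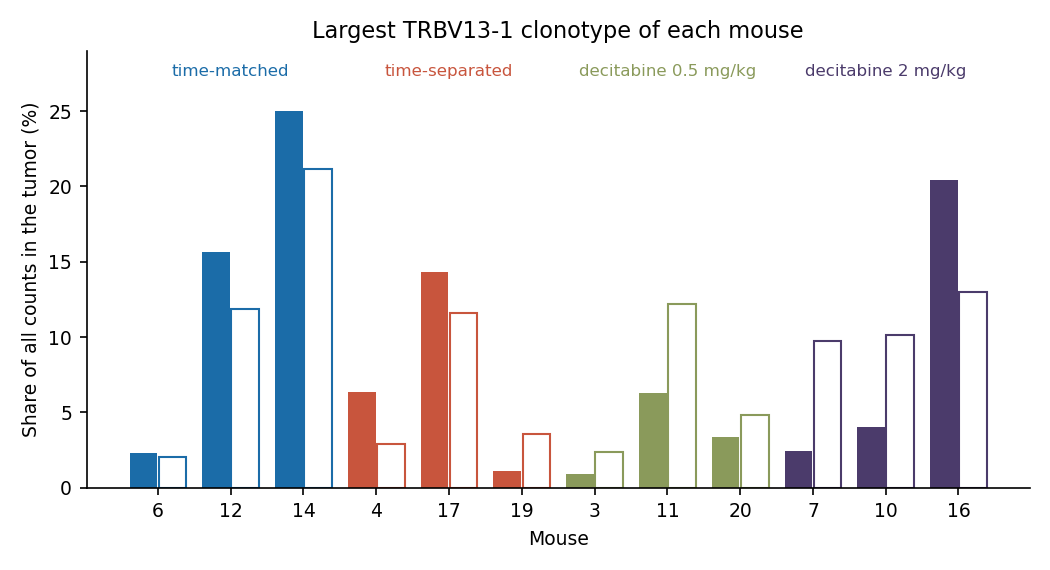
Share of all TCRβ counts (%) taken by the largest TRBV13-1 clonotype of each mouse in tumor 1 (filled bars) and tumor 2 (open bars), by group. Mouse 14 reaches 25.0% and 21.2%, and the bars of mouse 7 differ most in relative height, at 2.45% and 9.77%.

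In 5 mice a clonotype other than the largest differed most, in percentage points of all counts, between the tumors. In mouse 19, SEGIGQL (TRBJ2-2) took 0.0337% of tumor 1 (33 counts, 95% CI 0.0232% to 0.0474%) and 2.75% of tumor 2 (5656 counts), and it was found in no other mouse. SERGNTEV (TRBJ1-1) took 0.198% and 2.84% of the tumors of mouse 3, and SDGLGV (TRBJ2-1) took 0.821% and 4.73% in mouse 20. In mouse 4, SEIYEQ (TRBJ2-7) took 5.99% and 1.72%, and in mouse 17 STGAETL (TRBJ2-3) took 5.55% and 8.94%. None of these 5 had tryptophan at position 6. In the other 7 mice the clonotype with the largest change in percentage points was the largest TRBV13-1 clonotype itself. The order by fold differs, since small clonotypes can change by a larger factor.

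When the 10 largest TRBV13-1 clonotypes of either tumor were followed, 35 of 36 in the time-matched mice were present in both tumors, and 4 of those 35 differed more than 2-fold. In the untreated time-separated mice 27 of 44 were present in both, and 16 of the 27 differed more than 2-fold. With 0.5 mg/kg decitabine 30 of 44 were present in both and 20 of the 30 differed more than 2-fold, and with 2 mg/kg 29 of 38 and 20 of the 29. Among those present in both, the widest difference of a mouse ran from 0.47 (mouse 12) to 6.59 (mouse 20) on the log2 scale. TRBV13-1 clonotypes absent from the paired tumor held on average 5.59% ± 6.41 of TRBV13-1 counts (SD over 3 mice) in time-matched, 22.6% ± 25.2 in untreated time-separated, 20.1% ± 8.44 in 0.5 mg/kg and 7.20% ± 4.94 in 2 mg/kg mice. Single mice weighed on these means. Mouse 19 had 51.3%, mouse 4 had 12.8% and mouse 17 had 3.84%, so that the untreated time-separated mean was 8.31% without mouse 19. Among time-matched mice, mouse 6 had 13.0%, mouse 12 had 1.86% and mouse 14 had 1.91%, with a mean of 1.89% when mouse 6 was left out. The 2 mg/kg mean was 4.56% without mouse 10, which had 12.5%. The 0.5 mg/kg mice had 13.3% (mouse 11), 17.4% (mouse 20) and 29.6% (mouse 3), above every time-matched and every 2 mg/kg mouse, and the untreated time-separated mice overlapped with each group. All retained counts were used. The time-matched libraries (375898 to 610800 counts) were all deeper than the untreated time-separated ones and the 0.5 mg/kg ones. Libraries of the 0.5 mg/kg group held 63291 to 199081 counts (mean 129718), and those of the 2 mg/kg group 64192 to 887567 (mean 396121). The part of depth in the result was not tested. Clonotypes of 1 mouse are not replicates, so no test was made on them.

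CDR3s of TRBV13-1 clonotypes had a mean of 14.3 ± 0.479 residues (SD, n = 12 mice) against 13.6 ± 0.307 for all other V segments of the same tumors. They were longer in 11 of 12 mice, by 0.670 residues on average (p = 0.00244 by an exact two-sided permutation of signs). Mouse 4 was the exception with -0.397, and mouse 16 had the largest difference with 1.97. By group the mean difference was 0.975 ± 0.420 residues (SD, n = 3 mice) in time-matched, 0.0766 ± 0.410 in untreated time-separated, 0.546 ± 0.0143 in 0.5 mg/kg and 1.08 ± 0.808 in 2 mg/kg mice, and the differences between groups were not tested. Without thinning and pooled over all 24 tumors, CDR3s of 16 residues made up 37.5% of the clonotypes and 59.1% of the counts of TRBV13-1. Deep libraries weigh most in these pooled counts, and the largest clonotype of a mouse had this length in 5 of 12 mice. Many low-count sequences were 1 base away from a dominant clone. When such sequences were merged into a sequence of the same tumor, V and J with at least 20 times their count, the difference was 0.292 residues (exact sign-flip permutation p = 0.0107).

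These near copies were numerous. Of the 13913 nucleotide sequences of TRBV13-1 (each counted once per tumor and J), 8412 (60.5%) were 1-base variants by this definition, holding 5.58% of its counts. The shares of sequences were 49.1% for TRBV13-2, 35.4% for TRBV13-3 and 48.0% over all segments. After merging, the 11020 TRBV13-1 clonotypes became 5246. Merging keeps the V segment, so it leaves the share of counts of a segment as it was.

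J partners varied from mouse to mouse. TRBJ2-5 (19.3% ± 12.2 of TRBV13-1 clonotypes, SD over 12 mice), TRBJ2-7 (17.0% ± 11.1), TRBJ2-4 (14.0% ± 17.1) and TRBJ2-1 (12.3% ± 10.3) were the most frequent. Among clonotypes of all other V segments these held 11.9% ± 5.68, 20.9% ± 4.36, 8.61% ± 3.36 and 15.6% ± 4.96. TRBJ2-4 reached 61.9% of the TRBV13-1 clonotypes of mouse 16 and 85.7% of its TRBV13-1 counts, where SDWGGGSQNTL used it. TRBJ2-5 reached 37.5% of clonotypes in a mouse, and was above the other V segments in 9 of 12 mice by 7.46 percentage points on average (adjusted p = 0.443, exact sign-flip permutation test).

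Of the 12 J segments, 1 (8.33%) passed the test, TRBJ1-5, with 0.922% of TRBV13-1 clonotypes against 2.09% of the others (lower in 11 of 12 mice, adjusted p = 0.0176, exact sign-flip permutation test). After merging 1-base variants its difference was -0.681 percentage points (adjusted p = 0.466, exact sign-flip permutation test), and 0 of 12 passed. The remaining J segments, TRBJ1-1, TRBJ1-2, TRBJ1-3, TRBJ1-4, TRBJ1-6, TRBJ2-2 and TRBJ2-3, held 2.35% to 8.75% of TRBV13-1 clonotypes, with mean differences of -2.70 to 1.07 percentage points.

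**Figure D4:**
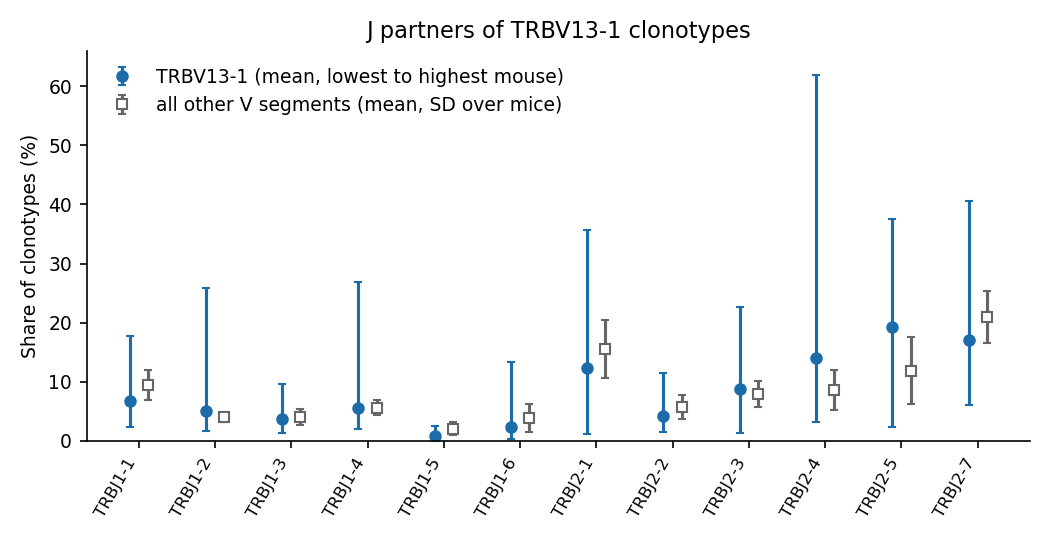
Share of clonotypes (%) joined to each TRBJ segment. Filled points are TRBV13-1 means over 12 mice with bars from the lowest to the highest mouse, and open squares are all other V segments with SD bars. TRBJ2-4 ranges up to 61.9% in 1 mouse.

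Pooled over all 24 tumors, most TRBV13-1 CDR3s began with C-A-S-S (64.6% of clonotypes, 93.9% of counts). Those beginning C-A-S-S-D alone held 36.0% and 65.1%, and deep libraries weigh most in such pooled counts. TRBV13-2 clonotypes began with C-A-S-G (69.6% of clonotypes, 96.8% of counts), so the start of the CDR3 differed between these family members. TRBV13-3 also began with C-A-S-S in 64.1% of clonotypes. Calls rarely crossed within the family. Of the 13913 TRBV13-1 sequences, 78 (0.561%) were also listed with the same CDR3 bases and J under TRBV13-2 or TRBV13-3 in the same tumor. In 50 of these TRBV13-1 had at least as many counts, and the relatives had 281 counts there. In the other 28 a relative had more, and TRBV13-1 had 254 counts there.

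Of the 3-residue windows of the CDR3 middle, 42 were found in all 12 mice, and the 5 of them in most TRBV13-1 clonotypes were WGG, GGG, DWG, GGA and GGS. WGG was in 23.5% of TRBV13-1 clonotypes (counted once per mouse), from 6.27% to 43.4% by mouse, against 2.24% of clonotypes of other V segments, 1.84% for TRBV13-2 and 1.57% for TRBV13-3. GGG was in 20.2% against 1.53% of the others, DWG in 16.9% against 3.15%, GGA in 10.2% against 2.42% (4.45% for TRBV13-3) and GGS in 6.43% (from 0.917% to 36.3% by mouse) against 1.42%. With 1-base variants merged, WGG was in 13.4% against 2.36%, GGG in 12.4% against 1.73% and DWG in 9.46% against 3.96%, and DGG took the place of GGS, with 4.06% against 1.13% of the others but 3.71% for TRBV13-2. The windows overlap, and WGG, GGG, DWG, GGA and GGS all occur in the large clonotypes shown above.

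Tryptophan at position 6 was counted for each V segment after this feature had been seen, as a description. It was present in 39.4% ± 11.2 of TRBV13-1 clonotypes (SD, n = 12 mice) and in 60.6% ± 22.1 of TRBV13-1 counts. Among all other V segments it was present in 3.93% ± 0.789 of clonotypes and 1.96% ± 1.72 of counts. With variants merged the clonotype shares were 22.9% ± 8.49 and 4.51% ± 0.542. TRBV4, the segment with the next highest share, then had 14.7% ± 2.85, and TRBV13-2 and TRBV13-3 had 4.69% ± 2.17 and 4.37% ± 2.09. By counts, without merging, TRBV13-2 had 5.01% ± 12.1 and TRBV13-3 had 2.70% ± 2.08. Single mice reached 43.3% for TRBV13-2 and 70.3% for TRBV30, above the lowest mouse for TRBV13-1 (21.5%).

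By tumor, the share of TRBV13-1 counts with this tryptophan ran from 20.2% in tumor 1 of mouse 4 to 90.0% in tumor 2 of mouse 10. It was lowest in mice 4 (20.2% and 24.1%) and 6 (22.5% and 25.4%). In mouse 19 it was 25.7% in tumor 1 and 70.4% in tumor 2. Group means were 60.6% ± 31.8 (time-matched), 43.9% ± 19.9 (untreated time-separated), 55.7% ± 14.7 (0.5 mg/kg) and 77.4% ± 3.94 (2 mg/kg), SD over 3 mice each. As means of the tumors of a mouse, the values ran from 74.8% to 81.9% with 2 mg/kg, above all untreated time-separated mice (22.2% to 61.4%) and all 0.5 mg/kg mice (39.0% to 66.8%), and overlapped with the time-matched mice (23.9% to 81.3%). The single tumors of these groups overlapped, and no test was made. Each value of a decitabine mouse includes the tumor that was removed before treatment. Single clonotypes weighed on these counts, since the largest of a tumor held 16.8% to 81.6% of its TRBV13-1 counts.

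**Figure D5:**
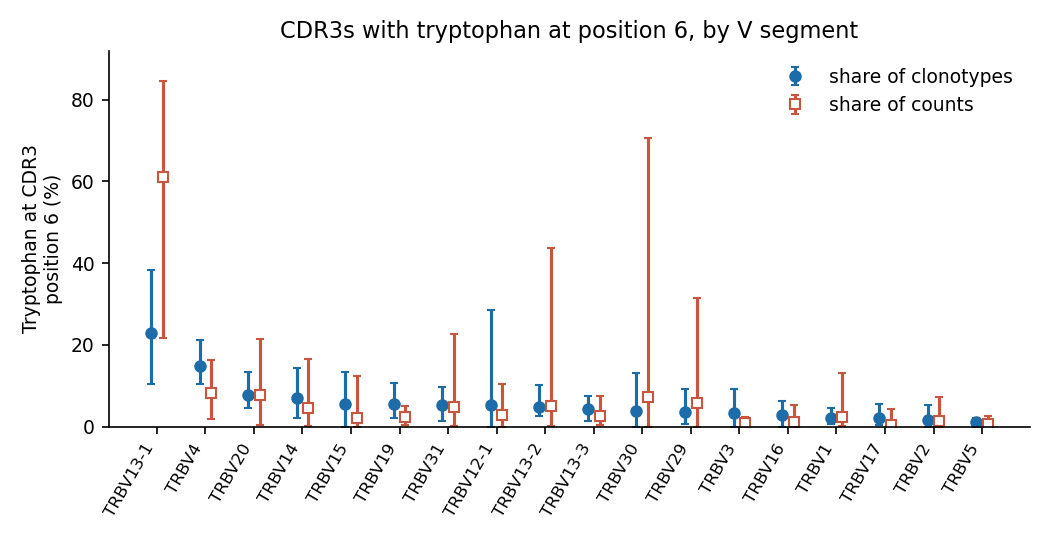
Share of CDR3s with tryptophan at position 6 for each of the 18 TRBV segments, 1-base variants merged. Circles are shares of clonotypes (%) and squares shares of counts (%), as means over 12 mice with bars from the lowest to the highest mouse. TRBV13-1 is highest on both, at 22.9% of clonotypes and 61.0% of counts.

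Among D segments, TRBD2 was called in 61.2% ± 13.6 of TRBV13-1 sequences (SD, n = 12 mice) and in 29.8% ± 5.09 of those of other V segments, with 34.8% ± 6.20 for TRBV13-2 and 29.2% ± 12.4 for TRBV13-3. After merging, the values were 47.2% ± 9.95 for TRBV13-1 and 31.9% ± 2.20 for the others.

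Of the 8073 different TRBV13-1 clonotypes, 407 (5.04%) were found in 2 or more mice and 54 in 4 or more. The latter number was 14 with a minimum of 10 counts in a tumor, 26 with 1-base variants merged and 11 with both. With neither, it was 52 of 6021 for TRBV13-2, 8 of 3490 for TRBV13-3 and 234 of 39632 for all other V segments. The share in 2 or more mice was 5.22% for TRBV13-2, 3.04% for TRBV13-3 and 4.52% for all other V segments. With the minimum of 10 counts the share in 2 or more mice was 4.60% for TRBV13-1, 145 of 3150 clonotypes, against 4.11% for the others.

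The clonotypes found in most mice were SDWGGGRQNTL (12 mice), SDWGGGSQNTL (9), SDWGGGNQDTQ (8) and SDWGGGGQDTQ (7), followed by 4 clonotypes in 6 mice each, of which SDWAGGALDEQ had the highest summed share. Sharing took different forms at the level of bases. The main sequence of SDWGGGRQNTL had 277200 counts in mouse 14, and the identical bases were found in all 11 other mice at 2 to 15 counts. That of SDWGGGSQNTL had 222625 counts in mouse 16 and 2 to 14 counts in 8 other mice. That of SDWAGGALDEQ had 149613 counts in mouse 12 and 2 to 5 counts in 5 others. These are the largest TRBV13-1 clonotypes of the series. The source of these traces was not tested. SDWGGGRQNTL also had 327 and 132 counts in the tumors of mouse 16, of which 394 were a 1-base variant of the largest clone there, and after merging fewer than 10 remained in either tumor.

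Other clonotypes were encoded by different bases in different mice at counts from 61 to 38187. They are shown with capitals at the bases that differ from the first sequence, which is that of the mouse with most counts, for mice with at least 10 counts after merging 1-base variants. All sequences of a set encode the same CDR3.
SDWGGGNQDTQ, mouse 12: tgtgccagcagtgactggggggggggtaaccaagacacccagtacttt
SDWGGGNQDTQ, mouse 17: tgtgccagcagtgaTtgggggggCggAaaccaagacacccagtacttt
SDWGGGNQDTQ, mouse 4: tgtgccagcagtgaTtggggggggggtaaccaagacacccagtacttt
SDWGGGNQDTQ, mouse 11: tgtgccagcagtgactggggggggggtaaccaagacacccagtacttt
SDWGGGNQDTQ, mouse 3: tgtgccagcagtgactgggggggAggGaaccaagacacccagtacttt
SDWGGGNQDTQ, mouse 16: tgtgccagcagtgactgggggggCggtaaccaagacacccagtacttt
SDWGGGGQDTQ, mouse 11: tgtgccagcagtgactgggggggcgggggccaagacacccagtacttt
SDWGGGGQDTQ, mouse 19: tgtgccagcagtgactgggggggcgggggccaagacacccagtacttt
SDWGGGGQDTQ, mouse 12: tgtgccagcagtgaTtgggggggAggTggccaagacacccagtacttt
SDWGGGGQDTQ, mouse 7: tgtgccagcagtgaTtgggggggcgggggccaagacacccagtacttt
SDWGGGGQDTQ, mouse 16: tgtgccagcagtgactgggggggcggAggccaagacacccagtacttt
SEWGGDYAEQ, mouse 19: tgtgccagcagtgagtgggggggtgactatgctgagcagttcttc
SEWGGDYAEQ, mouse 14: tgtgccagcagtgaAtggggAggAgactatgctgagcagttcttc
SEWGGDYAEQ, mouse 20: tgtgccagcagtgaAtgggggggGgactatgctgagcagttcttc
SEWGGDYAEQ, mouse 4: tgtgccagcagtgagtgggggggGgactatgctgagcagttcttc
The main sequences of SDWGGGNQDTQ had 38187, 4542, 3500, 2009, 374 and 179 counts in the mice as listed, over both tumors. Mice 12 and 11 had the same bases, and 5 different sequences encoded the CDR3 in the 6 mice. SDWGGGGQDTQ had 24320 counts in mouse 11 and 1833 in mouse 19 with the same bases, and 1404, 587 and 71 counts in mice 12, 7 and 16 with sequences of their own. SEWGGDYAEQ had a separate sequence in each of 4 mice, with 8396, 2521, 260 and 61 counts.

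SDWGGGSQNTL was likewise found in mouse 19 (1396 counts) and mouse 17 (171 counts) with bases other than those of mouse 16. SDWGADYAEQ had 9063 counts in mouse 20, and 5874 in mouse 7 and 380 in mouse 17 with a second sequence common to the latter pair. In mouse 7 it took 2.01% of tumor 1 and 0.338% of tumor 2. SDWGGGNQDTQ took up to 3.63% of a tumor in mouse 12, 1.21% in mouse 4, 1.41% in mouse 11 and 1.31% in mouse 17.

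After merging 1-base variants, 118 TRBV13-1 clonotypes had a main sequence of at least 10 counts, summed over the tumors of a mouse, in 2 or more mice. In 80 of them (67.8%) the main sequence differed in every mouse, in 15 some mice had it in common and in 23 it was the same in all. Without merging, 121 of 165 (73.3%) had a different one in every mouse. The other V segments were not examined in this way, so these shares are not set against a background.

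Close relatives of the largest clonotypes were also present in other mice. Clonotypes of the same length and J with at most 1 residue changed, the clonotype itself included, were found with at least 10 counts after merging for SDWGGGGQDTQ in 10 other mice, for SEWGGDYAEQ in 8, for SDWGGGSQNTL and SDWGGGVQDTQ in 7 each, for SDWGADYAEQ in 6 and for SDWGGGRQNTL in 4. The largest clonotypes of mice 4 (RGSSYNSPL), 7 (GHWGDVDTQ), 10 (SEWGNERL) and 12 (SDWAGGALDEQ) had none, while SDWANSDY had such relatives in 2 mice and SETANTEV in 1. SDWGGGRQNTL and SDWGGGSQNTL, the largest of mice 14 and 16, differ from each other at 1 residue, as do the largest of mice 3 and 11, SDWGGGVQDTQ and SDWGGGGQDTQ.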

How the data were processed

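Total RNA of whole tumors was used for TCR libraries with unique molecular identifiers. Reads were processed by the authors, identifiers included, in the Immune Profiler Software v2.0 of Takara (Cogent NGS), which also called the clonotypes. The deposited tables give a read count per sequence without normalization, and whether identifiers had been collapsed is not stated. The genome build is not given in the sources used here. TCRα tables were not used.

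TCRβ sequences without a stop mark and with at least 2 counts were retained. Shares of clonotypes per V segment, J partners, mean CDR3 lengths and Morisita-Horn indices used libraries thinned to 63291 counts (20 draws). Windows, tryptophan, D segments, CDR3 starts, sharing and tracking used all retained counts. Tests took 1 value per mouse (the mean of its tumors), were exact and two-sided, with Benjamini-Hochberg adjustment over 18 TRBV or 12 TRBJ segments and a threshold of 0.05, and were checked on simulated data. The 18 segments were those found in every tumor. A 1-base variant was merged into a sequence with at least 20 times its count, an alternative chosen after seeing the data. Intervals are exact 95% Clopper-Pearson. Named were the family, the 3 segments with the highest Spearman correlation with TRBV13-1, in each mouse the largest clonotype and that with the largest change in percentage points, the 5 clonotypes (ties by summed share) and the 5 windows of 3 residues (first 4 and last 6 CDR3 residues removed, ties by number of clonotypes) found in most mice, and relatives within 1 residue. Members, lists and tests were chosen with earlier results of these data known. Mice are separate animals, and their tumors are paired by mouse. Computations ran in Python 3.11.15 with scipy 1.17.1, numpy 2.4.6 and pandas 2.3.3, and figures were drawn in matplotlib 3.10.9.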

Additional observations from a re-analysis of the deposited data

How the results depend on the processing

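Of 90 values recomputed for 15 results under 10 other settings, 86 neither turned nor changed their side of the threshold. Part of them could not, since 3 against 3 mice cannot pass it, shares of counts are the same with nucleotide clonotypes or merged variants, and 2 results had no test, so the number does not measure stability. Without the largest TRBV13-1 clonotype of each mouse, the time-matched minus untreated time-separated difference in share of counts turned to -0.269 percentage points, that against all 9 was 4.33, and the log2 ratio of share of counts to share of clonotypes turned to -0.54, a direction set by the removal itself, since the other segments kept their largest clonotypes. With 1-base variants merged, the number of J segments that passed fell from 1 to 0. Why the other values changed was not tested. The difference in share of clonotypes against the untreated mice ran from 0.377 (variants merged) to 4.68 points (sequences of any stop mark kept) and that against all 9 from 1.55 to 5.91 (no thinning), the difference among the time-separated groups was 2.36 with variants merged, and the log2 ratio of shares ran from 0.04 (minimum count 1) to 0.41 (variants merged) with the largest clonotypes kept. The CDR3 length difference was 1.44 residues when weighted by counts. Leaving out 1 mouse at a time, the difference in share of counts ran from -5.49 (without mouse 14) to 14.2 against untreated and from -1.87 to 17.8 against all time-separated mice. The highest values were those without mouse 6, and that against untreated mice was 9.30 without mouse 17. For the share of clonotypes it ran from -0.318 (without mouse 14) to 5.77 (without mouse 6) against the untreated mice, with 1.36 without mouse 19 and 4.48 without mouse 17, and from 1.12 to 7.21 against all 9. Among the time-separated groups it ran from 6.47 to 15.0 for counts and from 3.50 to 7.01 for clonotypes. The log2 ratio of shares ran from 0.06 (without mouse 14) to 0.22 (without mouse 6), with 0.20 without mouse 3 and 0.08 without mouse 17. The number of J segments called ran from 1 to 2, with 2 when mouse 4 or mouse 10 was left out, and the CDR3 length difference ran from 0.552 to 0.767 residues. No paired analysis was possible because the groups compared hold different mice, whose numbers are not shared. Within a mouse, tumors and segments were compared as pairs.

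With 3 mice a group, differences below the spread between mice could not be seen, and 3 against 3 mice cannot give a p below 0.1. Libraries differed in depth, and time-matched libraries were deep. Low-count sequences near a dominant clone raise numbers of clonotypes, and the counts are not independent molecules, so intervals cover counting error only. The labels do not say which tumor was early.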

Other observations

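A short TRBV13-1 clonotype without tryptophan at position 6 was also shared between mice with the same bases. SEIYEQ, joined to TRBJ2-7 and with no D segment called, had 13277 counts of its main sequence in mouse 4 and 1078 in mouse 14. It took 0.152% (95% CI 0.143% to 0.163%) of tumor 1 and 0.0260% of tumor 2 of mouse 14. Its deposited CDR3 sequence, printed without capitals, was as follows.
SEIYEQ, mouse 4: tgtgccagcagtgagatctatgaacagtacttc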
